A study of Mus musculus with 30 samples.

Results

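The genes described here are 8 markers of the enteric nervous system, the network of neurons and glia in the gut wall, chosen by name: the glial genes S100b, Sox10 and Gfap and the neuronal genes Elavl4, Uchl1, Ret, Vip and Nos1. They are 8 of the 55487 genes counted in mouse colon, and 7 of the 8 had enough reads to be tested. Gfap, at 0 to 9 reads a library, was too low. Total RNA of the colon was read by 3′ tag sequencing, which counts reads near the end of each transcript, in 30 mice, 5 of each of 6 genotypes. The groups were WT mice; mice without Xbp1 in intestinal epithelial cells (IEC), the cells that line the gut; mice without Casp8 in IEC; mice without both in IEC, here the double knockout; mice without Xbp1, Casp8 and Tnfr1 in IEC, here the TNFR1 triple knockout; and mice without Xbp1 and Casp8 in IEC and without Mlkl, for which the label names no cell type, here the MLKL triple knockout. The labels name no promoter that drives the deletions and no age.

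Enteric neurons lie in ganglia between the muscle layers and under the lining, and they drive contraction, relaxation, secretion and blood flow. Glia surround them and extend into the layer beneath the epithelium. Neurons and glia are not epithelial cells, so the IEC deletions do not target these cells themselves. In bulk tissue, fewer cells of a type and less RNA per cell cannot be told apart, and every level is relative to the rest of the RNA.

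SOX10 is the transcription factor that keeps neural crest cells in the glial state, S100B is a calcium-binding protein of glia, and GFAP is a filament protein of a subset of glia. ELAVL4 (HuD) is a neuronal RNA-binding protein, UCHL1 (PGP9.5) is a ubiquitin hydrolase found throughout neurons, and RET is the receptor for glial cell line-derived neurotrophic factor (GDNF), on which the development of enteric neurons depends. VIP, a peptide, and the nitric oxide made by NOS1 are the transmitters of the inhibitory motor neurons that relax gut muscle, and many of those neurons make both. In the double knockout Nos1 fell, and Vip did not pass the test. The RefSeq promoter windows (GRCm38.p6; 250 bases up to the transcript start) of Vip, the peptide transmitter, and of S100b, the member with the largest fall, are printed here. For Nos1 the RefSeq transcript starts far inside the gene as Ensembl places it, so its window may not be the promoter and is not printed. Capitals mark TGACG or its reverse complement CGTCA, the core bound by cyclic AMP response factors, a class of factor for which the VIP gene is a textbook target.
Vip: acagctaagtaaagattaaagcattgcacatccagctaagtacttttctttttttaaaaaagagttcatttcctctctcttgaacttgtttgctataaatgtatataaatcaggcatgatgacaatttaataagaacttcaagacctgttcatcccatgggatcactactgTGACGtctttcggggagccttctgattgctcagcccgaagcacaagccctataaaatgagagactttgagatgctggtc
S100b: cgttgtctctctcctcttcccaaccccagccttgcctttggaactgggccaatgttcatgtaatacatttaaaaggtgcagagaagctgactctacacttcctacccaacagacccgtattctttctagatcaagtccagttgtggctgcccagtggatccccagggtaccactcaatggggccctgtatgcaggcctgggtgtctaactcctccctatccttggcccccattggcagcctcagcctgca
They lie at chr10:5638968-5639217 and chr10:76253586-76253835, both on the plus strand. This core, searched on both strands, was found in 1 place in the Vip window and in 0 places in the S100b window. It occurred in 17.8% of 32851 such windows, and the full palindrome TGACGTCA, in 1.55% of them, was in 0 of these 2. A match describes the letters of the window and shows no binding.

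Depth and label checks for all libraries came first. Library totals ran from 3516792.6 to 5823059.7 reads, and 1 read was worth about 0.232 CPM (reads scaled to the size of the library) in the median library. The label checks found that Casp8, the deleted gene, was at 21.1 CPM in replicate 2 of the Xbp1 knockout, whose other 4 libraries had 45 to 66.7 CPM, and that Mlkl was at 10.7 CPM in replicate 5 of the MLKL triple knockout, whose other 4 had 1.3 to 4.38 CPM. Replicate 1 of the double knockout had 10.3% of its reads on mitochondrial genes, against 16 to 19.2% in the other 4 of its group. Results that rest on these 3 libraries are given with and without them. Other target levels also stood apart. Casp8 was at 46.3 and 43.3 CPM in double knockout replicates 4 and 5, against 22 to 35.6 in the other 3, 24.7 to 34.8 in the Casp8 knockout and 51.5 to 58.7 in WT. Tnfrsf1a, which encodes TNFR1, was at 75.4 CPM in TNFR1 triple knockout replicate 1, against 52.4 to 61.5 in the other 4 and 65 to 78.9 in WT. A fit without all 6 of these libraries, which leaves 2 double knockout mice whose spread is taken from all groups, is given where it ends a call. Xbp1 tags ran from 51.1 to 65.1 CPM in the Xbp1 knockout, from 70.4 to 140 in the double knockout and from 52.8 to 100 in WT. The deleted stretch of Xbp1 is not given in the sources used here, and 3′ tags outside it would check nothing. By their X- and Y-linked genes, 4 of 5 mice were male in both the WT and double knockout groups, 2 of 5 in both single knockouts, 1 of 5 in the TNFR1 triple knockout and 0 of 5 in the MLKL triple knockout. Of the groups contrasted, only WT and the double knockout had the same split. In the other contrasts, those of the triple knockouts with WT among them, sex and genotype differ in part together.

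S100b was lowest in the double knockout, at 0.299 times its WT level. In WT mice it was at 10.3, 11.6, 12.9, 10.7 and 5.46 CPM, and in double knockout mice at 3.27, 3.58, 4.78, 2.47 and 0.911 CPM, the last from 4 reads. Every double knockout mouse was below every WT mouse. The log2 fold change was -1.74 ± 0.3 (SE, n = 5 against 5, adjusted p 0.000136, edgeR). The means of the other genotypes lay between: 6.18 CPM in the Casp8 knockout (3.82 to 8.54), 6.06 ± 1.04 (SD, n = 5) in the MLKL triple knockout, 5.75 ± 1.24 in the Xbp1 knockout and 5.01 ± 1.99 in the TNFR1 triple knockout. Each of these neighbours in the order, down from WT and on to the double knockout, had overlapping ranges. S100b was also lower in the double knockout than in the Casp8 knockout, by a log2 fold change of -1.02 ± 0.314 (adjusted p 0.0214), and higher in the MLKL triple knockout than in the double knockout, by 0.99 ± 0.311 (adjusted p 0.0455). The groups overlapped in both contrasts. The first call was lost without Casp8 knockout replicate 3 (adjusted p 0.0724), without Casp8 knockout replicate 5 (0.0607) and without double knockout replicate 5 (0.0628), in a fit of only those groups (0.069) and without the 6 libraries (0.448). The second was lost in 7 of 10 fits that left out a library, namely double knockout replicates 1, 4 and 5 and MLKL triple knockout replicates 1, 2, 3 and 5, with adjusted p up to 0.13, with sex in the model (0.114), without the 3 libraries in doubt (0.111) and without the 6 (0.658). The call against WT held in each of these fits, with a log2 fold change of -1.28 (adjusted p 0.028) without the 6 libraries. In the MLKL triple against the double knockout sex and genotype differ together, since the MLKL triple knockouts were all female. The 3′ end of S100b lies inside Dip2a on the opposite strand, and the strand setting of the counting is not given in the sources used here, so reads of the pair cannot be told apart.

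Sox10 did not pass the test in any of the 11 contrasts. It was at 7.26, 4.27, 6.21, 4.89 and 3.38 CPM in WT mice and at 3.27, 4.09, 1.99, 3.46 and 3.87 CPM in double knockout mice, the latter from 10 to 20 reads a library. The groups overlapped. The log2 fold change was -0.66 ± 0.315 (adjusted p 0.136), with a 95% interval of -1.30 to -0.01. Means in the other groups ran from 4.45 ± 1.42 CPM in the MLKL triple knockout to 4.88 ± 0.473 in the Xbp1 knockout (SD, n = 5). Gfap, below the filter, had mean levels from 0.685 CPM in the TNFR1 triple knockout to 1.4 CPM in the MLKL triple knockout, and its ranges overlapped in every pair of groups. It had 0 reads in 2 libraries, Xbp1 knockout replicate 2 and MLKL triple knockout replicate 3, which allows up to 0.695 and 0.73 CPM there by counting error alone (3 reads). A change in Gfap was not detectable at this depth.

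Nos1 fell in the Xbp1 knockout and in the double knockout, to levels that did not pass the test against each other. In WT mice it was at 22.9, 22, 16.1, 16.8 and 15.6 CPM. In Xbp1 knockout mice it was at 8.53, 5.79, 10.4, 10.1 and 14.2 CPM, all below the lowest WT mouse, and in double knockout mice at 6.21, 11, 10.2, 8.9 and 7.74 CPM, also all below it. The log2 fold changes from WT were -0.93 ± 0.182 in the Xbp1 knockout (adjusted p 0.0329, edgeR) and -1.10 ± 0.184 in the double knockout (adjusted p 0.000106), which is 0.525 and 0.468 times WT. The direct contrast of these 2 groups gave -0.17 ± 0.191 (adjusted p 0.635; 95% interval -0.56 to 0.22). In Casp8 knockout mice Nos1 was at 17.6, 13.5, 14, 13.2 and 15.3 CPM. These overlapped WT, and the double knockout was lower than they were by -0.75 ± 0.188 (adjusted p 0.0058), again without overlap. Without the 6 libraries that contrast was -0.48 (adjusted p 0.196). The TNFR1 and MLKL triple knockouts, at 12.4 ± 1.63 and 11.7 ± 2.02 CPM (SD, n = 5), did not overlap WT in any mouse, but their adjusted p of 0.0701 and 0.0678 missed the threshold. The Xbp1 knockout call rests on single libraries. Without replicate 2, whose Casp8 level goes against its label, the log2 fold change was -0.79 (adjusted p 0.102), and the call was lost without Xbp1 knockout replicates 1 and 4 or any 1 of the 5 WT mice as well, with adjusted p from 0.0558 to 0.0988. It was also lost with sex in the model (0.0525) and without the 3 libraries in doubt (0.0566). The double knockout call against WT held in every one of these fits, with adjusted p at most 0.000638 when 1 library was left out and 0.0112 without the 6 libraries.

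Vip did not pass the test in any of the 11 contrasts. It was at 33.2, 35.6, 38.4, 41.2 and 34.9 CPM in WT mice and at 38.6, 23.5, 39.6, 23 and 33 CPM in double knockout mice, where 2 mice were within the WT range and 3 were below it. The log2 fold change was -0.21 ± 0.182 (adjusted p 0.45; 95% interval -0.58 to 0.16). Its lowest level was in the Casp8 knockout, at 29.6, 27.6, 24.2, 19.1 and 20 CPM, all below every WT mouse, with a log2 fold change of -0.61 ± 0.188 and an adjusted p of 0.0984. The interaction of the Xbp1 and Casp8 deletions for Vip was 0.62 ± 0.262 (adjusted p 0.201). The read ratio of Nos1 to Vip summarises the pair within each mouse. It was 0.516 ± 0.129 in WT (SD, n = 5), 0.624 ± 0.107 in the Casp8 knockout, 0.314 ± 0.0927 in the Xbp1 knockout and 0.301 ± 0.124 in the double knockout, and the double knockout mice (0.161 to 0.467) and WT mice (0.407 to 0.689) overlapped. The ratio was chosen after the levels of both genes had been seen and was not tested.

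Elavl4 and Uchl1, carried by nearly all neurons, fell in the double knockout. Elavl4 was at 22.5, 18, 20.5, 20.3 and 21.6 CPM in WT and at 9.32, 12.3, 14.9, 13.9 and 7.97 CPM in double knockout mice, without overlap. The log2 fold change was -0.82 ± 0.198 (adjusted p 0.00336), and without the 6 libraries it was -0.59 (adjusted p 0.118), no longer past the threshold. Uchl1 was at 29.9, 22.3, 30.1, 27.3 and 26.8 CPM in WT and at 22.2, 16.1, 19.1, 18.8 and 16.6 CPM in double knockout mice, where the highest double knockout mouse lay just below the lowest WT mouse. Its log2 fold change was -0.55 ± 0.192 (adjusted p 0.0392), and leaving out double knockout replicates 2, 3, 4 or 5 or WT replicates 1, 3, 4 or 5 ended the call, with adjusted p from 0.0541 to 0.0823. Ret fell short of the threshold: 5.85 ± 1.43 CPM in WT and 3.83 ± 1.82 CPM in the double knockout (SD, n = 5). Its log2 fold change was -0.59 ± 0.302 (adjusted p 0.164). Ret lies 7.15 Mb from the Tnfrsf1a locus on chromosome 6, and whether its level moves with that allele was not tested. Its log2 fold change between the TNFR1 triple and the double knockout was -0.12 (adjusted p 0.886). For all 3 genes WT had the highest mean of the 6 groups.

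**Figure D1:**
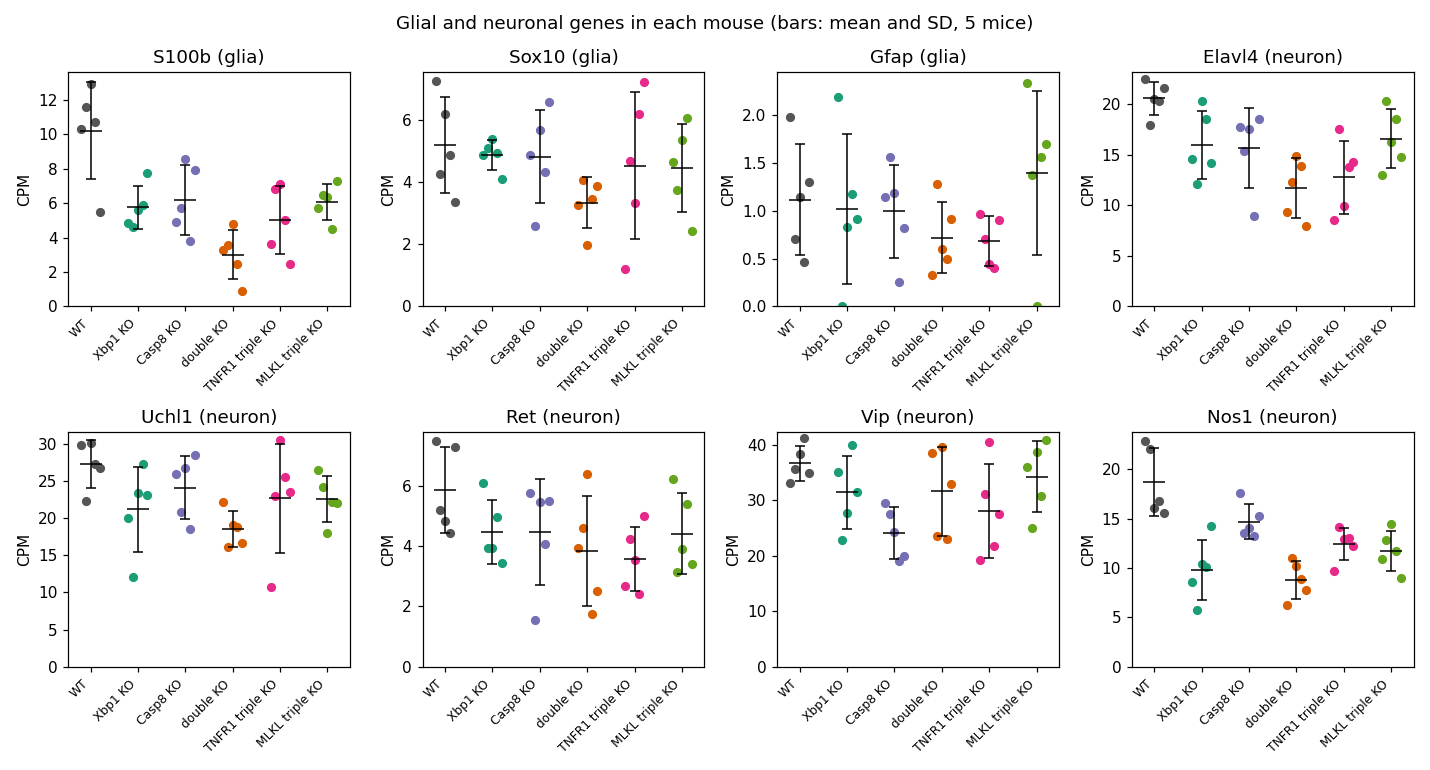
CPM (vertical axis, from 0) of each of the 8 genes in every mouse, by genotype; points are mice, and bars are the mean and SD of 5 mice. The S100b, Elavl4, Uchl1 and Nos1 points of the double knockout lie below every WT point, for Uchl1 only just (22.2 against 22.3 CPM), while the Vip points of those groups overlap.

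Read over the 7 tested genes, 4 were lower in the double knockout than in WT (S100b, Nos1, Elavl4 and Uchl1) and 0 were higher. Of all 15458 genes tested 21.3% were called in that contrast, 10.2% lower and 11.1% higher. The median log2 fold change of the 7 was -0.66, against 0.01 over all genes. Without the 3 libraries in doubt 4 were called (3092 of 15591 genes), in males alone 4 (2094 of 14263), and without the 6 libraries 3 (1331 of 16116). In the Xbp1 knockout against WT 1 of 7 was lower (Nos1), where 0.0841% of all genes were called and 0.0259% were lower. In the double against the Casp8 knockout 2 of 7 were lower (S100b and Nos1), where 18.4% of genes were called and 8.71% were lower. Without the 6 libraries 0 of 7 were called there, with 422 of 16116 genes called. In the MLKL triple against the double knockout 1 of 7 was higher (S100b), where 7.65% were called and 3.44% were higher. Without the 3 libraries in doubt 0 of 7 were called there, with 1091 of 15591 genes called.

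None of the 7 passed the edgeR test in the other 7 contrasts. In the Casp8 knockout against WT, where 1.17% of genes were called, 2 of 7 had an unadjusted p under 0.05, as did 15.6% of all genes, with 0 called by DESeq2 and 1 by limma voom, Vip. In the TNFR1 triple knockout against WT (2.12% called) 5 of 7 did, and 17.6% of all genes. S100b was nearest, with a log2 fold change of -1.02 ± 0.284 and an adjusted p of 0.05002, and DESeq2 and limma voom each called 3 genes, S100b, Elavl4 and Nos1. In the MLKL triple knockout against WT (0.854% called) 2 of 7 did, and 15.4% of all genes, and both other tools called 1, Nos1. In the double against the Xbp1 knockout (8.64% called) 2 of 7 did, a share near the 25% of all genes, with 1 called by DESeq2, S100b, and 0 by voom. In the TNFR1 triple against the double knockout (2.35% called) 2 of 7 did, and 18.2% of all genes. Between the 2 triple knockouts (0.259% called) 0 of 7 did, and 8.55% of all genes. For the interaction (1.38% called) 1 of 7 did, and 18.2% of all genes. In these last 3 contrasts both other tools called 0. Over all genes, DESeq2 called 356, 560 and 291 in the Casp8, TNFR1 triple and MLKL triple knockouts against WT, and limma voom 505, 836 and 350. In the double against the Xbp1 knockout they called 1551 and 1398. All 7 point estimates against WT were below 0 in each of the 5 mutants, in comparisons that share the same 5 WT mice. The median log2 fold change over all genes was from -0.00 to 0.01 there. The 7 genes are not separate observations: the correlations between them over the mice ran from -0.02 to 0.66.

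**Figure D2:**
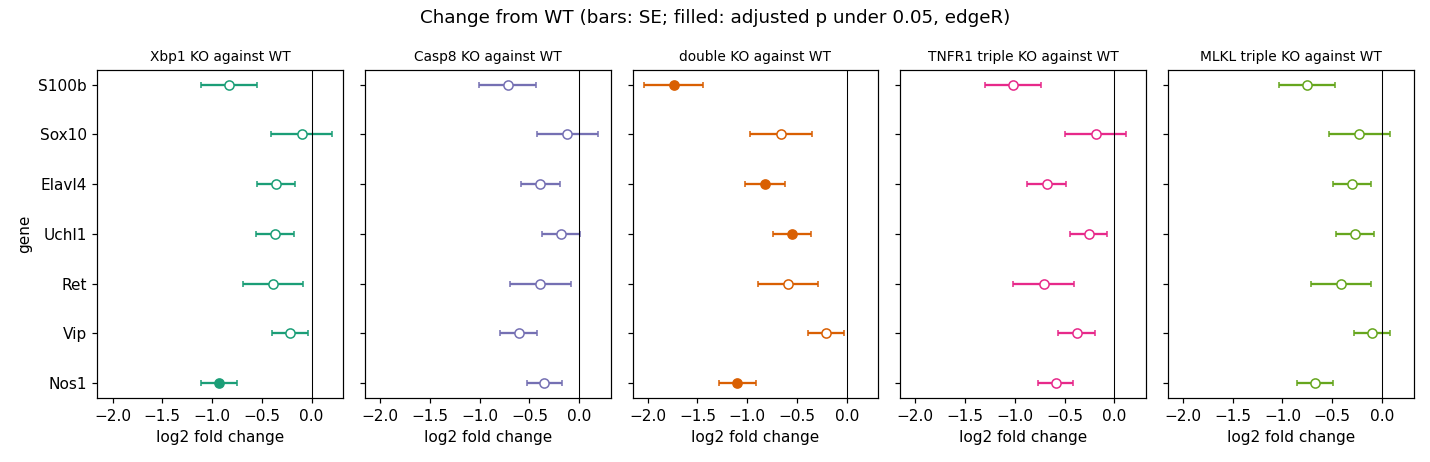
Log2 fold change from WT (horizontal axis) of the 7 tested genes, 1 panel per mutant group; bars are the SE, and filled points passed an adjusted p of 0.05 by edgeR. Filled points are Nos1 in the Xbp1 knockout and S100b, Elavl4, Uchl1 and Nos1 in the double knockout.

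Glial against neuronal genes were compared within each mouse as the mean log2 CPM of the 3 glial genes minus that of the 5 neuronal genes. The difference was -2.12 ± 0.281 in WT (SD, n = 5), -1.99 ± 0.132 after loss of Xbp1, -2.03 ± 0.223 after loss of Casp8 and -2.34 ± 0.266 after loss of both. The triple knockouts had -2.15 ± 0.124 (TNFR1) and -2.04 ± 0.275 (MLKL). The ranges of all 6 groups overlapped, from -2.49 to -1.82 in WT and from -2.69 to -1.97 in the double knockout. With Gfap, too low to test, left out, the difference was -1.34 ± 0.393 in WT (-2.01 to -0.97) and -1.81 ± 0.265 in the double knockout (-2.11 to -1.53). The gap was wider, and the ranges of WT and the double knockout overlapped. The Xbp1 knockout, at -1.28 ± 0.23 (-1.49 to -0.91), did not overlap the double knockout on this measure, and this was not tested. Of the glial genes S100b passed the test in the double knockout and Sox10 did not, and of the neuronal genes Nos1, Elavl4 and Uchl1 did and Vip and Ret did not. Differences between genes were not tested. The summed glial level went from 16.5 ± 4 CPM in WT to 7.06 ± 1.22 CPM in the double knockout, without overlap, and the summed neuronal level from 109 ± 4.84 to 74.4 ± 10.5 CPM, also without overlap.

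Other genes of the same cells, from lists written with earlier results of these data known, also held genes that fell and genes that did not pass. Of 14 further glial genes 9 were tested, and 2 were lower in the double knockout than in WT and 0 higher. In that contrast 10.2% of all genes were lower and 11.1% higher. Kcna1, a potassium channel, was lower by -1.81 ± 0.31 (adjusted p 0.000134), and Entpd2, an enzyme that breaks down extracellular ATP, was at -0.07 (adjusted p 0.788). The list's median was -0.65. Of 20 further neuronal genes 10 were lower and 0 higher (median -0.65), first of all Stmn2, a regulator of microtubules in axons, at -1.25 ± 0.197 (adjusted p 5.01e-05), the adhesion molecule Ncam1 at -0.67 and the microtubule protein Map1b at -0.65. Stmn2 was at 36.1, 43.4, 47.1, 35.2 and 48.4 CPM in WT and at 17.7, 25.1, 15.3, 16.6 and 13.7 CPM in double knockout mice, without overlap. The summed neuronal list ran from 393 to 452 CPM in WT and from 260 to 290 CPM in the double knockout. Without the 3 libraries in doubt the counts were again 2 and 10. The neuronal genes were not all the same, since the call of Gap43 was lost (adjusted p 0.0684, edgeR) and another gene passed.

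Of 16 listed transmitter genes other than Vip and Nos1 10 were tested, and 4 were lower in the double knockout than in WT and 0 higher (median -0.65). The share of all genes that were lower was 10.2%. Slc5a7, the choline transporter of cholinergic neurons, was at -1.11 ± 0.272 (adjusted p 0.00396), the peptide gene Nmu at -1.14 ± 0.311 (adjusted p 0.00854) and Ddc, an enzyme of amine synthesis that endocrine cells of the gut also carry, at -0.66 ± 0.183 (adjusted p 0.0101). The fourth was Calb2, a calcium-binding protein, at -1.04. Tac1, the precursor of substance P, was at 0.21 (adjusted p 0.446) and, like Vip, did not pass. Slc5a7 was also lower in the TNFR1 triple knockout than in WT, by -1.23 ± 0.277 (adjusted p 0.0166), where it was 1 of the 10 and 2.12% of all genes were called. Against the double knockout, the MLKL triple knockout had 3 of 10 higher, where 3.44% of all genes were: Nmu by 1.22, Ddc by 0.72 and Grp, a peptide gene, by 1.35. Without the 3 libraries in doubt 2 were higher, since Ddc was then at 0.65 (adjusted p 0.0548). Tac1 was higher in the double than in the Casp8 knockout, by 0.69 (adjusted p 0.0107), and without the 3 libraries in doubt by 0.53 (adjusted p 0.0558), a lost call.

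In the GDNF and endothelin pathways, which bring neural crest cells into the gut and keep them there, 7 of 8 listed genes besides Ret were tested. In the double knockout against WT, where 10.2% of all genes were lower, 2 of the 7 were lower and 0 higher (median -0.29). These were Gfra1, the GDNF co-receptor that pairs with RET, by -1.01 ± 0.327 (adjusted p 0.0253), and Gfra2, the co-receptor for neurturin, by -1.07 ± 0.31 (adjusted p 0.0133). The ligand genes Gdnf and Nrtn, at -0.52 and -0.06, and the endothelin genes Edn3 and Ednrb, at 0.45 and -0.12, did not pass. No gene of this list passed in the other 10 contrasts.

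Across the other contrasts the further glial and neuronal genes passed in few cases. The MLKL triple knockout had 2 times as much Stmn2 as the double knockout (adjusted p 0.002), and Kcna1 was higher by a log2 fold change of 1.26 ± 0.317 (adjusted p 0.0122), 1 of 20 and 1 of 9 tested. With 3.44% of all genes higher there, 1 of 20 is near the share over all genes. Without the 3 libraries in doubt the 2 list counts were 1 and 0. In the MLKL triple knockout against WT, where 0.854% of all genes were called, Map1b was lower by -0.59 (adjusted p 0.0279) and Ncam1 by -0.43 (adjusted p 0.0499), 2 of 20 tested. Without the 3 libraries in doubt the Ncam1 call was lost (adjusted p 0.0688). In the TNFR1 triple against the double knockout (2.35% of all genes called) Ncam1, 1 of 20 tested, was higher by 0.42 (adjusted p 0.0381), which was also lost without those libraries (adjusted p 0.0934). In the double against the Xbp1 knockout (8.64% of all genes called) Stmn2, at -1.15, and Hand2, at -0.77, were lower, 2 of 20 tested. The peptide gene Nmu, at -1.14, was lower too, 1 of 10 transmitter genes tested. Both counts are near the share over all genes. In the double against the Casp8 knockout (8.71% of all genes lower) Kcna1, at -1.47, was lower, 1 of 9 glial genes tested. Of 20 neuronal genes 4 were lower (3 without the 3 libraries in doubt), among them Ncam1 at -0.66, Map1b at -0.71 and Stmn2 at -0.71.

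The wall of the colon that holds these cells also changed in its RNA. All 12 smooth muscle genes were lower in the double knockout than in WT (median -1.04; Des, a muscle filament gene, at -1.53 ± 0.203), and their summed level ran from 6907 to 9521 CPM in WT and from 3366 to 5064 CPM in the double knockout. Of 7 fibroblast genes 5 were lower, and of 9 epithelial genes 6 were higher, with a sum of 5649 to 6805 CPM in WT and 7433 to 9115 CPM in the double knockout. Of 8 immune genes tested 7 were higher, with a sum of 148 to 285 CPM in WT and 330 to 1238 CPM in the double knockout. Without the 3 libraries in doubt these counts were again 12, 5, 6 and 7. Over all genes, with all libraries, 10.2% were lower and 11.1% higher. The 3 genes of interstitial cells of Cajal, the pacemakers of the muscle, did not pass (median -0.36), although 1 was lower without the 3 libraries in doubt, and 0 of the 4 fat genes tested did. Of 5 genes that mark the region of the colon 1 was lower. Between the double and the MLKL triple knockout 8 of 12 smooth muscle genes were higher in the latter (5 without the 3 libraries in doubt), where 3.44% of all genes were higher. In the TNFR1 triple against the double knockout 5 of 12 were higher (3 without those libraries), where 2.35% of all genes were called. In the Xbp1 knockout against WT, where Nos1 was called, 0 of 12 smooth muscle genes were, as were 0.0841% of all genes. The median of the muscle genes was -0.35, beside -0.37 for the 7 tested members. Their sum in the Xbp1 knockout was 5061 to 7975 CPM, which overlapped WT. The part of the tissue's composition in the falls of S100b, Elavl4, Uchl1 and Nos1 was not tested.

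Set against the muscle reads of the same mouse, the members ordered differently. This measure was chosen after the data had been seen and has no test. Per 1000 reads of the 12 smooth muscle genes, Vip was at 4.35 ± 0.575 in WT (SD, n = 5; 3.54 to 5.05) and 7.86 ± 2.28 in the double knockout (4.65 to 10.7), with overlap. Uchl1 went from 3.24 ± 0.546 to 4.64 ± 0.958, Elavl4 from 2.45 ± 0.417 to 2.94 ± 1.05 and Sox10 from 0.607 ± 0.147 to 0.819 ± 0.196. Ret went from 0.703 ± 0.23 to 0.935 ± 0.475 and Gfap from 0.134 ± 0.0686 to 0.173 ± 0.071. Nos1 was at 2.2 ± 0.328 in WT (1.76 to 2.56) and 2.19 ± 0.546 in the double knockout. In the Xbp1 knockout Nos1 was at 1.4 ± 0.443 (1.08 to 2.17), which overlapped WT. S100b was at 1.19 ± 0.295 in WT and 0.742 ± 0.378 in the double knockout, with overlapping ranges.

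**Figure D3:**
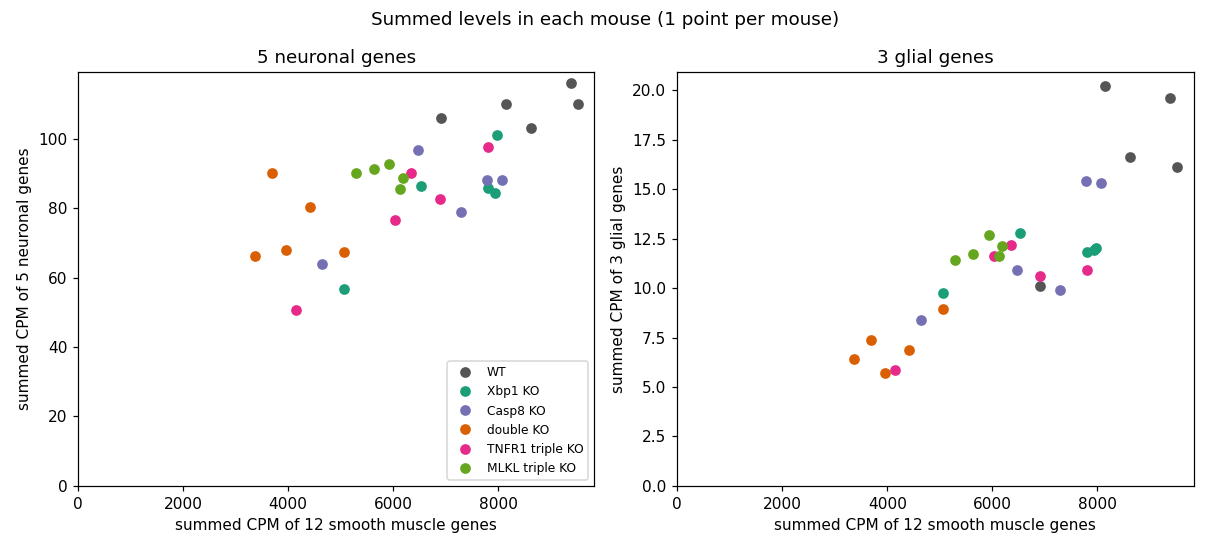
Summed CPM of the 5 neuronal genes (left) and the 3 glial genes (right) against the summed CPM of 12 smooth muscle genes, 1 point per mouse, coloured by genotype, all axes from 0. The double knockout mice have muscle sums of 3366 to 5064 CPM and WT mice of 6907 to 9521 CPM and do not overlap on any of the 3 sums.

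**Figure D4:**
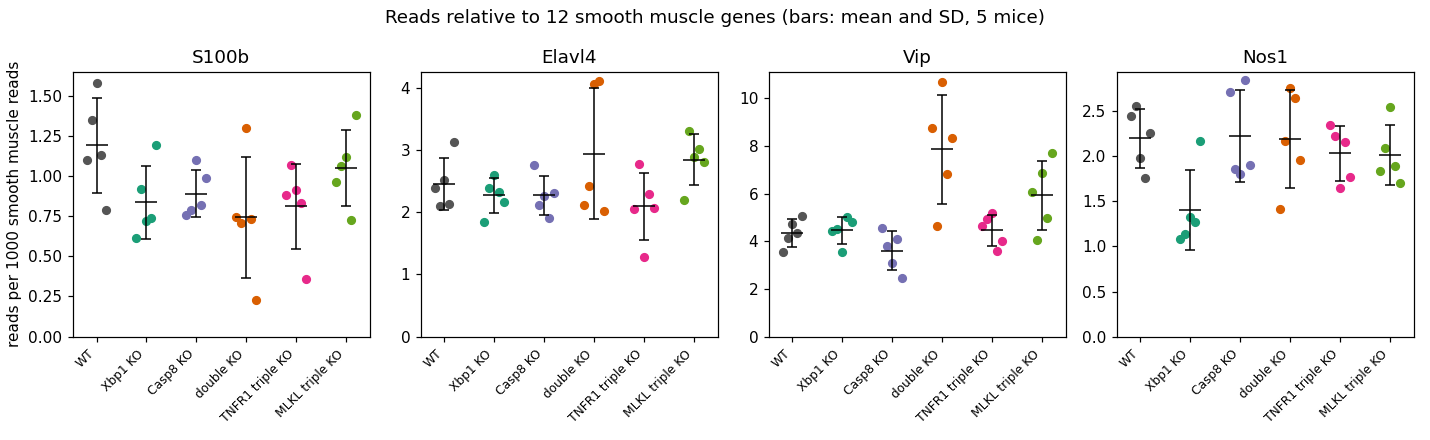
Reads of 4 genes per 1000 smooth muscle reads (vertical axes, from 0) in each mouse, by genotype; bars are the mean and SD of 5 mice. The mean of Vip is highest in the double knockout, that of Nos1 is lowest in the Xbp1 knockout, and the WT and double knockout means of Nos1 are 2.2 and 2.19.

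The genes whose levels ran most like each member over the 30 mice, by Pearson r of log2 CPM, are a description and include the differences between genotypes. For S100b they were Palld (r = 0.85), Itpr1 (0.81) and Synpo2 (0.81), of which Synpo2 is in the smooth muscle list. For Nos1 they included Palld (0.80) and Kcnn3 (0.78), for Elavl4 they were Galnt17 (0.83), Wnt8b (0.81) and Bend7 (0.81), and for Uchl1 Ptchd1 (0.79), Gm11946 (0.78) and Apbb1 (0.78). For Vip they were Rai2 (0.80), Kbtbd11 (0.75) and D630039A03Rik (0.73). For Sox10 they were B230118H07Rik (0.72), Zbtb16 (0.70) and Nfib (0.69), and for Ret Adck2 (0.70), Lrrc17 (0.65) and Rtn1 (0.65). With each group centred on its own mean, the r of S100b with Palld was 0.67 and that of Vip with Rai2 was 0.75. Among the members themselves S100b ran with Elavl4 (r = 0.66) and Nos1 (0.65) more than with Sox10 (0.24), the other glial gene, and Vip ran with Nos1 at 0.08. Centred on the group means, S100b ran with Elavl4 at 0.37, with Nos1 at 0.36 and with Sox10, which rests on few reads, at -0.06.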

How the data were processed

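Colon RNA of 30 mice, 5 for each of 6 genotypes, was sequenced as 3′ tags. The labels' protocols name Lexogen's QuantSeq kit in its forward version. The deposited table holds estimated counts for each Ensembl gene, and 11.2% of its non-zero values were not whole. The build was GRCm38 (mm10) and the tools were featureCounts 2.01, Subread, cutadapt 3.2 and R 4.0.0, per the submitters' processing notes. For the aligner's settings, the strand setting and the annotation release, the answer is not given in the sources used here. No molecular identifiers are named there. The limits for Gfap in libraries without reads cover counting error only. The 95% intervals come from the edgeR fit and include the spread between mice.

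Counts were rounded, and genes were kept by filterByExpr (15458 of 55487). All libraries entered 1 fit with edgeR 4.0.16 (R 4.3.3; TMM normalization, quasi-likelihood F test, Benjamini-Hochberg adjustment over all genes tested in each of 11 contrasts, threshold 0.05). CPM use TMM library sizes, and log2 CPM a prior count of 2. A log2 fold change is given with its SE. The edgeR test was checked on simulated data for the double knockout against WT alone. Changes were simulated only in genes with a mean level above those of Sox10, Ret and Gfap, so the check does not cover these genes. Libraries are separate mice per the labels' protocols, so p-values measure the spread between mice, and each pair of replicates differed by at least 3.27 times Poisson noise. Each mouse's sex came from its Xist and Y-linked reads.

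All 8 members were reported, up to 3 genes of smallest p from each of the lists of glial, neuronal, transmitter, GDNF and endothelin, smooth muscle, Cajal, enteroendocrine, fat, immune, epithelial, fibroblast and colon region genes, and the 3 genes most like each member. Some genes that the rule names are not reported here. Beyond that rule, Entpd2, Calb2, Tac1, Isl1, Snap25 and the genes of the GDNF and endothelin pathways that did not pass were named after their values were seen. The members and lists were chosen with earlier results of these data known. Alternatives were other size factors, filters and fits, limma voom (3.58.1), DESeq2 (1.42.0), replicate and sex terms, and libraries left out; leaving out 3 or 6 libraries together and taking males alone were added after seeing the data.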

Additional observations from a re-analysis of the deposited data

Results flagged for a closer look

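In the MLKL triple knockout, replicate 3 had a glial minus neuronal mean log2 CPM of -2.52, where the other 4 mice of its group lay between -1.96 and -1.83. Its distance from the nearest mouse was 0.812 of the group's range, above the 5% limit of 0.71 for 5 samples. Gfap had 0 reads in this library. Of 54 groups examined 1 stood out, and chance alone marks about 1 in 20.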

How the results depend on the processing

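Of the calls for single genes, those of S100b and Nos1 in the double knockout against WT held under every alternative in which the gene was tested and under every left-out library, that of Elavl4 under all but the fit without 6 libraries (adjusted p 0.118), and no direction of a called value reversed. The counts of called members moved as follows, with the number of all genes called in the same fit in brackets. The main fit called 13 of 15458 genes in the Xbp1, 181 in the Casp8, 327 in the TNFR1 triple and 132 in the MLKL triple knockout against WT. It called 1335 in the double against the Xbp1 and 2842 in the double against the Casp8 knockout. In the MLKL triple against the double knockout it called 1182. Without a low-count filter, the TNFR1 triple knockout against WT gave 1 (416 of 31617 genes) and the MLKL triple against the double knockout 0 (1080). With a stricter filter (10 CPM in 5 libraries, which S100b does not pass), the MLKL triple knockout against WT gave 1 (157 of 10634 genes). The double against the Casp8 knockout then gave 1 (2551) and the MLKL triple against the double knockout 0 (1030). With the compared groups alone, the Casp8 knockout against WT gave 1 (Vip, adjusted p 0.0223, 435 of 14085 genes). The MLKL triple knockout against WT gave 1 (306 of 14198) and the double against the Casp8 knockout 1 (1570 of 14047). The MLKL triple against the double knockout gave 0 (490 of 14106). With limma voom, the counts against WT were 2 for the Xbp1 (424 of 15458 genes) and 1 for the Casp8 knockout (505). They were 3 for the TNFR1 triple (836) and 1 for the MLKL triple knockout (350). The MLKL triple against the double knockout gave 0 (820). With DESeq2, the TNFR1 triple knockout against WT gave 3 (560 of 15458 genes), the MLKL triple knockout against WT 1 (291) and the double against the Xbp1 knockout 1 (1551). With sex as a term, the Xbp1 knockout against WT gave 0 (8 of 15458 genes) and the MLKL triple against the double knockout 0 (876). Without the 3 libraries in doubt, the Xbp1 knockout against WT gave 0 (9 of 15591 genes) and the MLKL triple against the double knockout 0 (1091). The TNFR1 triple knockout against WT then gave 1 (442). Without the 6 libraries, the Casp8 knockout against WT gave 1, the MLKL triple knockout against WT 1, the double against the Casp8 knockout 0 and the MLKL triple against the double knockout 0. The cause of these moves was not tested.

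With the replicate number as a replicate block, the Xbp1 knockout against WT gave 0 (Nos1, adjusted p 0.065), with 9 of 15458 genes called. The TNFR1 triple knockout against WT gave 1 (290) and the double against the Xbp1 knockout 1 (1175). The numbers do not pair the mice: 19 of 75 same-numbered pairs correlated over 0.1 (r from -0.27 to 0.28), and 5 of 30 libraries correlated best with their own number.

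With 1 library left out at a time, counts ran from 0 to 1 for the Xbp1 knockout against WT, from 0 to 2 for the TNFR1 triple knockout against WT, from 3 to 4 for the double knockout against WT, from 0 to 1 for the double against the Xbp1 knockout, from 1 to 3 for the double against the Casp8 knockout and from 0 to 1 for the MLKL triple against the double knockout. The gains were S100b in the TNFR1 triple knockout without its replicate 2 or 3 or WT replicate 5, Elavl4 there without its replicate 2, S100b in the double against the Xbp1 knockout without double knockout replicate 3, and Elavl4 in the double against the Casp8 knockout without Casp8 knockout replicate 4.

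The glial minus neuronal difference was -2.23 in the Xbp1 knockout and -2.37 in the TNFR1 triple knockout with a prior count of 0.5. With Gfap left out it was -1.34 in WT, -1.28 in the Xbp1 knockout, -1.34 in the Casp8 knockout, -1.81 in the double knockout and, for the triple knockouts, -1.46 (TNFR1) and -1.44 (MLKL). At 0.232 CPM a read, Gfap, Sox10 and Ret rest on few reads, and small changes in them were not detectable.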

Other observations

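Markers of hormone-secreting cells of the gut lining, which share the machinery of regulated secretion with neurons, were listed to show other cells that carry neuronal genes. In the double knockout against WT 4 of 11 tested were higher, 1 was lower and 6 did not pass, where 11.1% of all genes were higher and 10.2% lower. Sct, the gene of secretin, was higher by 1.78 ± 0.238 (adjusted p 7.64e-06, edgeR) and Chgb, a granule protein, by 0.69 ± 0.128 (adjusted p 0.00028). Isl1, a transcription factor of endocrine cells, was lower by -0.46 ± 0.167 (adjusted p 0.0485). In the Casp8 knockout against WT, where 1.17% of all genes were called, 2 of 11 were higher, Chgb by 0.74 and Chga by 0.59. Snap25, a vesicle fusion gene of the neuronal list, had a log2 fold change of 0.00 between those 2 groups (adjusted p 0.995).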
